A study of Mus musculus with 8 samples.

Results

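The genes described here build, decorate and crosslink the extracellular matrix outside the collagens and laminins. The set is a list of 43 gene names, drawn up with earlier results of these data known: adhesive and matricellular glycoproteins, elastic-fibre and fibulin genes, proteoglycans and lysyl oxidases. All 43 had a row among the 35852 genes of the gene-level count table, matched through their Ensembl identifiers. A total of 29 of them had enough counts to be tested, among 13272 genes tested in all. The cells were bEnd3, an established line of mouse brain endothelial cells grown in medium with fetal calf serum. Cells were given 5 µM corticosterone, the main glucocorticoid hormone of mice, for 24 h (4 libraries, replicates 1 to 4), or were kept in culture medium (4 libraries, replicates 1 to 4). The treatment protocol of the medium samples names corticosterone as well, although their titles and treatment field give culture medium, and no vehicle is named. Poly(A)-selected RNA was sequenced from each sample. The labels leave out whether the replicates were separate cultures, and each p-value therefore reflects only how these libraries vary, which may be technical. The comparison asks how the hormone alters the transcripts of these cells.

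Fibronectin, tenascin and thrombospondin are secreted glycoproteins that cells grip through integrins, and matricellular proteins such as SPARC tune that grip without bearing load. Fibulins and EMILINs help to assemble elastin on fibrillin microfibrils, proteoglycans carry glycosaminoglycan chains that bind water and growth factors, and lysyl oxidases join collagen and elastin chains covalently. In vessels of the brain, endothelial cells share a basement membrane with pericytes and astrocytes, and several of these proteins sit in or next to it.

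Library totals were 27699005 to 33192806 estimated counts with corticosterone and 19746067 to 46206677 in medium, and mitochondrial transcripts took 2.05% to 2.58% and 2.23% to 2.31% of them. Corticosterone replicates 1 and 2 stood apart from the other libraries. Their transcript tables used an effective length equal to the transcript length plus 1, whereas in the other 6 libraries it was 340.4 to 360.3 nt shorter than the transcript. Gene counts of pairs that held replicate 1 or 2 differed by a mean chi-square of 48.9 to 110.2 per gene, against 2.19 to 4.86 for other pairs of 1 group. No pair of libraries agreed within sampling noise. Among 14 endothelial markers, 13 passed the filter, and Cdh5 (VE-cadherin) stood at 1985 ± 42.3 against 1867 ± 51.0 CPM (SD, n = 4 each). Of the 13, 6 were called higher, Cdh5 among them, and 4 lower, which were Pecam1, Kdr, Erg and Sox18. Over all tested genes 40.2% were called, 19.6% higher and 20.7% lower. The summed endothelial markers ranged from 9540 to 9881 CPM with corticosterone and from 8732 to 9220 CPM in medium. The 7 fibroblast markers summed to 5.74 to 6.72 CPM with corticosterone and 19.9 to 22.0 CPM in medium, mostly Pdgfra, which averaged 4.87 against 18.4 CPM. Of these markers, Lum and Dcn are also among the 43 genes. Lum had 0 counts with corticosterone and 1 in medium, Dpt 1 and 0, Col3a1 1 and 5, and Dcn 4 and 5. The 10 pericyte and smooth muscle markers summed to 4.10 to 6.13 against 5.67 to 7.08 CPM, and Kcnj8 was at 0 counts with corticosterone and 1 in medium. Leukocyte markers summed to 16.7 to 18.2 CPM with corticosterone and 16.5 to 18.6 CPM in medium. Markers of glia and neurons summed to 0.739 to 1.08 against 0.418 to 0.804 CPM. Called lower with corticosterone were 2 of 2 tested fibroblast markers and 2 of 4 for pericytes and smooth muscle, against 20.7% of all tested genes. Their part in the results on matrix genes was not tested. In bulk RNA, fewer cells of a type and less RNA per cell cannot be told apart.

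With corticosterone, 7 of the 29 tested matrix genes rose and 14 fell, and 8 were not called. A gene counts as called at a Benjamini-Hochberg adjusted p under 0.05 in edgeR's quasi-likelihood test over all 13272 genes. The same rule called 40.2% of all tested genes, 19.6% higher and 20.7% lower, so a call alone was common in these cells. Among the matrix genes, 9 were called with a change of at least 2-fold, 3 higher and 6 lower, where 3.76% of all tested genes met that rule (2.5% higher and 1.26% lower). Levels in the 2 groups did not overlap for 20 of the 29, 7 of them higher and 13 lower, against 39.9% of all tested genes (19.3% higher and 20.6% lower). Each of these counts of higher genes includes Vcan, which passed the filter through the corticosterone libraries alone, on 66 against 24 counts. The median log2 fold change of the 29 was -0.19 and the median absolute change was 0.37, against 0.00 and 0.14 over all tested genes. When corticosterone replicates 1 and 2 were left out, 7 matrix genes were higher and 12 lower, where 36.6% of all tested genes were called in either direction.

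**Figure D1:**
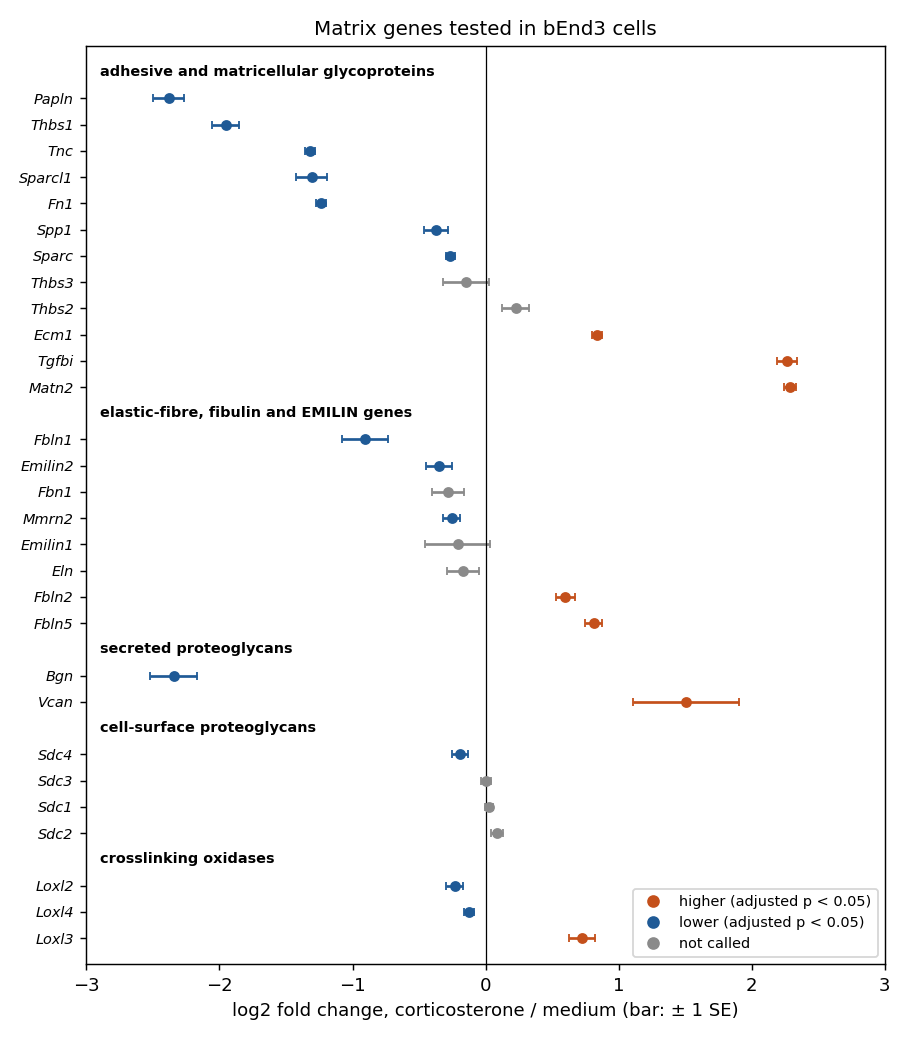
Log2 fold change of the 29 tested matrix genes, corticosterone over medium, grouped by role (4 libraries each, bars ± 1 SE from edgeR, colours by adjusted p). Papln and Bgn lie farthest left at -2.38 and -2.34, Matn2 and Tgfbi farthest right at 2.29 and 2.26, and the syndecans sit near 0.

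Of the 16 adhesive and matricellular genes, 12 were tested, of which 3 rose, 7 fell and 2 were not called. Fibronectin held more counts than any other of these genes in medium, and it fell in every treated library. Fn1 (chr1:71585520-71653200, minus strand, GRCm38) stood at 1270.2, 1274, 1209.7 and 1200.0 CPM (counts scaled to a common library size) in corticosterone replicates 1 to 4. In medium replicates 1 to 4 it stood at 3060.2, 2801, 2799 and 3013 CPM. All 4 treated libraries lay below all 4 in medium. The means were 1239 ± 39.2 against 2918 ± 138 CPM (SD, n = 4 each), a ratio of 0.424 (log2 fold change -1.24 ± 0.04 (SE), adjusted p = 2.41e-10). Tnc, which encodes tenascin-C, a hexameric glycoprotein of remodelling tissue, stood at 419, 373, 384 and 413 CPM with corticosterone and 984, 948, 1003 and 1028 CPM in medium. Its groups did not overlap either, with a ratio of 0.401 (log2 fold change -1.32 ± 0.04 (SE), adjusted p = 7.24e-10). Without corticosterone replicates 1 and 2 the log2 fold changes of Fn1 and Tnc were -1.27 and -1.31.

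Fn1 pre-mRNA is spliced at the exons for extra domain B (EDB) and extra domain A (EDA), each an additional type III repeat, and at the variable (V) region, which has alternative acceptors within 1 exon. The EDB exon spans chr1:71613763-71614035 (273 nt, 91 codons) and is held by 1 of the 7 annotated full-length coding transcripts. The EDA exon spans chr1:71603660-71603929 (270 nt, 90 codons) and is held by 4 of the 7. The stretch at chr1:71597673-71597747 (75 nt, 25 codons) separates the longest V form, whose exon has 467 nt and 120 extra codons, from the 392-nt form with 95, and the 107-nt form has none. The 3 sequences are given on the minus strand, 5′ to 3′, because the exon shares that follow count transcripts with and without them. Capitals in EDA mark bases 117 to 137 of the exon, which encode the loop known to bind integrins α4β1 and α9β1.
EDB exon: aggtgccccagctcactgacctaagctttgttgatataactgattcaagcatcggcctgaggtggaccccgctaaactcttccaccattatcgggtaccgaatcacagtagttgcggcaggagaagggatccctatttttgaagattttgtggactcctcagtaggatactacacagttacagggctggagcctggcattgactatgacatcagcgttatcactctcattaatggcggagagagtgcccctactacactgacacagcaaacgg
EDA exon: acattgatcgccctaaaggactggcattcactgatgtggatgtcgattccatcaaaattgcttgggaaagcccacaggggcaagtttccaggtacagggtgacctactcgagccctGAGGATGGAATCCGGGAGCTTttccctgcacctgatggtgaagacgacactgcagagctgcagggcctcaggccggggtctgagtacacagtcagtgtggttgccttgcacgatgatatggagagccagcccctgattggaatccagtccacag
V piece: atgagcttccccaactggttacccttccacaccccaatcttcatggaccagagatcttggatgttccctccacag

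The share of Fn1 transcripts that held the EDA exon, from estimated counts per transcript length, was 33.1, 32.1, 48.3 and 47.4% in corticosterone replicates 1 to 4. In medium replicates 1 to 4 it was 40.0, 39.8, 40.4 and 43.2%. Corticosterone replicates 1 and 2 lay below every medium library and replicates 3 and 4 above every one, so the groups straddled each other. Over all 8 libraries the shares averaged 40.3 ± 8.84% and 40.9 ± 1.60% (SD, n = 4), and a two-sided exact permutation test gave p = 0.886 (adjusted over 4 exons, 0.886). Between replicates 3 and 4 and medium the difference was 7.04 percentage points (exact permutation p = 0.0667, the smallest that 15 splits allow). The EDB exon was held by 2.83, 5.14, 5.84 and 7.47% of transcripts with corticosterone and 5.37, 6.26, 5.83 and 6.15% in medium. Its groups overlapped, with p = 0.657 in the same exact permutation test (adjusted, 0.876) over 8 libraries and 0.333 without replicates 1 and 2.

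The longest V form made up 67.7, 84.7, 90.4 and 93.2% of transcripts with corticosterone and 88.8, 88.3, 88.0 and 87.8% in medium. The 95-codon form made up 28.2, 13.2, 8.10 and 5.44% with corticosterone and 9.74, 10.6, 10.1 and 10.7% in medium. Again corticosterone replicates 1 and 2 lay on the other side of medium from replicates 3 and 4 for both forms. The exact permutation test over 8 libraries gave p = 0.714 for either form, where 0.0286 is the smallest p that 4 against 4 libraries allow. Without those replicates the differences were 3.56 and -3.49 percentage points, each at the smallest p that the 6 libraries allow in the exact permutation test, 0.0667. With the small V-less form these 2 shares make up the whole, so that they are nearly 1 observation. The V-less form stayed between 1.39% and 4.12% with corticosterone and between 1.12% and 1.89% in medium. Exons 2 and 3 of Fn1, the others of the 4 exons tested, were held by at least 99.8% of transcripts in 7 libraries and by 89.8% in corticosterone replicate 2 (exact permutation p = 0.0571, adjusted 0.114).

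**Figure D2:**
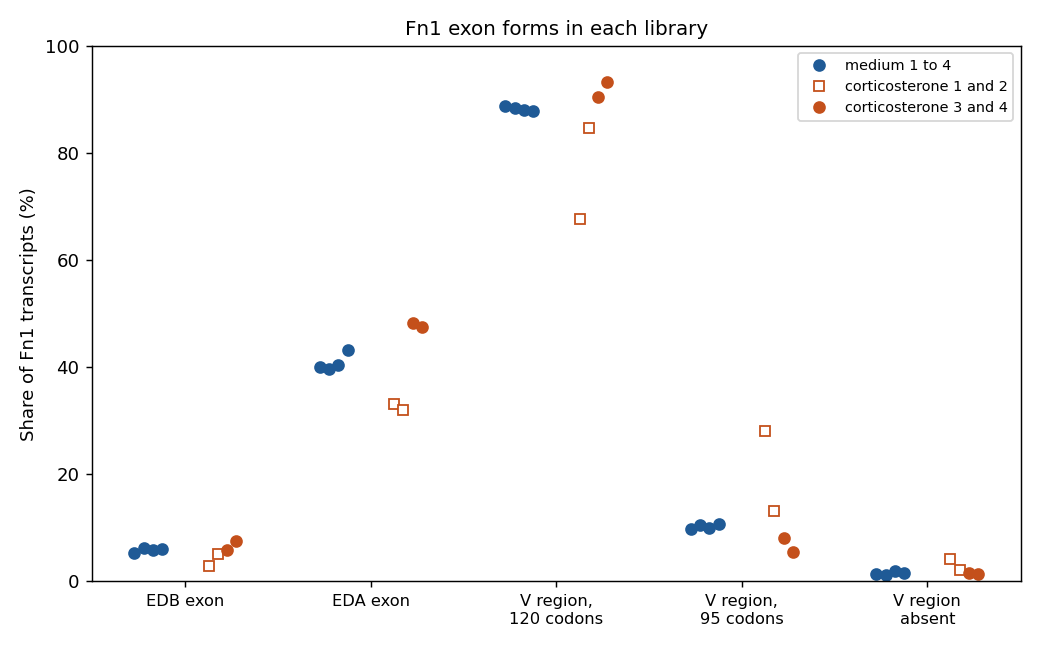
Share of Fn1 transcripts (%) that hold the EDB exon, the EDA exon or each V form, 1 point per library, with medium in blue and corticosterone in orange. Open squares are corticosterone replicates 1 and 2, which lie below medium for EDA (32.1% and 33.1%), while replicates 3 and 4 lie above it (47.4% and 48.3%).

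By transcript, Fn1 counts in medium were assigned mostly to Fn1-203 (46.7%, neither EDA nor EDB) and Fn1-214 (35.2%, with EDA). Fn1-203 stood at 441, 694, 503 and 531 CPM with corticosterone and 1430.4, 1336, 1309 and 1319 CPM in medium. Fn1-214 stood at 398, 282, 501 and 471 CPM with corticosterone and 1045, 946, 972 and 1122 CPM in medium. Both fell, with every treated library below every medium library, to ratios of 0.402 (adjusted p = 0.00192) and 0.404 (adjusted p = 0.00725). Of the 17 annotated transcripts, 11 passed the filter. By adjusted p in edgeR over 39985 transcripts, 5 were called lower and 0 higher, where 3.35% of all were called, 1.43% lower. At an unadjusted p under 0.05 in the same fit, 7 were lower and 0 higher, and the share of all transcripts at that threshold is not given here. Without corticosterone replicates 1 and 2, 7 were called lower by adjusted p, where 2.63% of 43417 transcripts were. In that fit 1 was called higher, Fn1-213, which holds EDA (mean 1.03 against 0.201 CPM, adjusted p = 0.0282). Fn1-213 passed the filter through corticosterone replicates 3 and 4 alone and was not tested over 8 libraries. Likewise Fn1-207, 1 of the 5 called lower, was under the filter in every corticosterone library, at no more than 0.290 CPM. Fn1-217, with 354, 113, 83.4 and 58.3 CPM against 279, 283, 269 and 305 CPM, was not called over 8 libraries, and its replicate 1 value with corticosterone lay above medium. It was called without replicates 1 and 2, at a ratio of 0.251 (adjusted p = 0.000401).

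Thbs1, Papln and Sparcl1 also fell. Thbs1 encodes thrombospondin-1, an inhibitor of angiogenesis and activator of latent TGF-beta, and lies at chr2:118111876-118127133, plus strand. It stood at 27.7, 25.2, 34.3 and 30.4 CPM with corticosterone and 119, 105, 113 and 119 CPM in medium. The lowest medium library lay well above the highest treated library, and the ratio was 0.258 (log2 fold change -1.95 ± 0.10 (SE), adjusted p = 2.85e-06). Papln encodes papilin, a proteoglycan-like basement membrane glycoprotein, and stood at 1.80, 1.92, 1.88 and 2.64 CPM with corticosterone and 11.4, 10.5, 9.80 and 11.1 CPM in medium. The groups did not overlap, and replicate 4 was the highest of the treated libraries. The ratio was 0.192 (log2 fold change -2.38 ± 0.12 (SE), adjusted p = 2.00e-08). Sparcl1 (hevin, an anti-adhesive relative of SPARC) stood at 6.52, 6.21, 7.46 and 5.71 CPM with corticosterone and 17.5, 16.6, 12.7 and 17.3 CPM in medium. Medium replicate 3 was the lowest of its group and still above every treated library, with a ratio of 0.404 (log2 fold change -1.31 ± 0.11 (SE), adjusted p = 6.42e-06).

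Sparc itself, which encodes a collagen-binding matricellular protein, fell by less. Its means were 2280.2 ± 69.0 against 2739 ± 106 CPM (SD, n = 4 each), a ratio of 0.833 (adjusted p = 4.23e-05). Spp1 (osteopontin, an integrin-binding phosphoprotein) also fell, from 17.7 ± 2.52 to 13.6 ± 0.884 CPM (adjusted p = 0.00854). In each, all 4 treated libraries lay below all 4 in medium. Thbs2 and Thbs3, the other thrombospondins of the set, were not called, with 3.73 ± 0.264 against 3.19 ± 0.284 CPM (SD, n = 4 each) and 1.37 ± 0.129 against 1.49 ± 0.308 CPM (SD, n = 4 each). Their adjusted p were 0.103 and 0.545.

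Matn2, Tgfbi and Ecm1 went the other way. Matn2 (chr15:34306677-34436273, plus strand) encodes matrilin-2, an oligomeric adaptor of filamentous matrix networks, and stood at 112, 116, 128 and 123 CPM with corticosterone and 23.7, 24.1, 24.9 and 25.3 CPM in medium. The spread within either group was small beside the gap, and the level rose 4.88-fold (log2 fold change 2.29 ± 0.04 (SE), adjusted p = 9.27e-12). Tgfbi (chr13:56609523-56639562, plus strand) encodes a secreted fasciclin-domain protein named for its induction by TGF-beta, and stood at 17.2, 18.3, 19.4 and 17.2 CPM with corticosterone and 3.67, 4.16, 3.32 and 3.83 CPM in medium. It rose 4.80-fold with no overlap between the groups (log2 fold change 2.26 ± 0.08 (SE), adjusted p = 8.35e-10). Ecm1, which encodes a basement membrane protein that binds perlecan and fibulin-1, stood at 106, 114, 113 and 106 CPM with corticosterone and 64.7, 61.0, 57.2 and 62.5 CPM in medium. Every treated library exceeded every medium library, and the rise was 1.79-fold (log2 fold change 0.84 ± 0.04 (SE), adjusted p = 1.96e-08). Without corticosterone replicates 1 and 2 the log2 fold changes were 2.36, 2.29 and 0.83 in that order.

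**Figure D3:**
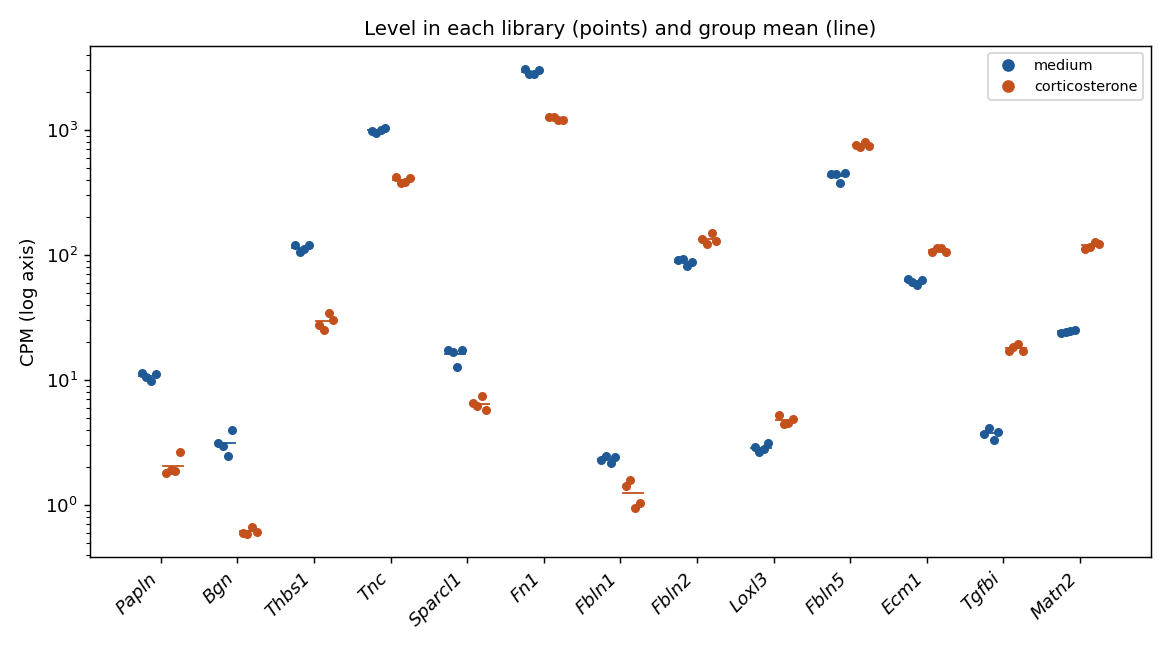
Level in CPM (log axis) of the 13 matrix genes called with an absolute log2 fold change of at least 0.5 and a mean of at least 1 CPM in a group, with 1 point per library and a line at each group mean. The 13 were chosen on these same values, and in none of them do the 4 corticosterone points and the 4 medium points overlap. Over all tested genes, without such a choice, 39.9% had no overlap.

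Of the 12 elastic-fibre, fibulin and EMILIN genes, 8 were tested, of which 2 rose, 3 fell and 3 were not called. The fibulins moved in both directions. Fbln5 encodes fibulin-5, which tethers elastin and lysyl oxidases to cells through integrins, and lies at chr12:101746565-101819055, minus strand. It stood at 752, 729.6, 796 and 738 CPM with corticosterone and 447, 443, 373 and 452 CPM in medium. The groups did not overlap, medium replicate 3 being the lowest library, and the rise was 1.76-fold (log2 fold change 0.81 ± 0.06 (SE), adjusted p = 1.72e-05). Fbln2, whose product joins fibronectin, fibrillin and basement membrane proteins, stood at 134, 123, 151 and 129 CPM with corticosterone and 91.2, 93.6, 81.4 and 87.8 CPM in medium. It rose 1.52-fold without overlap (log2 fold change 0.60 ± 0.07 (SE), adjusted p = 0.000183). Fbln1, a fibronectin-binding fibulin, was low, at 1.42, 1.59, 0.941 and 1.05 CPM with corticosterone and 2.31, 2.47, 2.16 and 2.40 CPM in medium. Its 4 treated libraries all lay below medium, with a ratio of 0.533 (log2 fold change -0.91 ± 0.17 (SE), adjusted p = 0.00123).

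The structural proteins of the fibre itself were not called. Eln (tropoelastin) had 36.0 ± 0.623 against 40.4 ± 6.83 CPM (SD, n = 4 each) with an adjusted p of 0.311, and its lowest library of all was medium replicate 3, at 30.4 CPM. Without medium replicate 3 the log2 fold change was -0.28 and passed the threshold (adjusted p = 0.000147). Fbn1 (fibrillin-1, the microfibril backbone) had 4.03 ± 0.526 against 4.92 ± 0.591 CPM (SD, n = 4 each) (adjusted p = 0.0804), and 2442 bases of its exons are shared with Gm9913 on the opposite strand. Emilin1, an elastin-microfibril interface protein, had 0.46 ± 0.0441 against 0.528 ± 0.0444 CPM (SD, n = 4 each) (adjusted p = 0.535). Emilin2, its relative, fell from 5.22 ± 0.529 to 4.10 ± 0.296 CPM (adjusted p = 0.0124), but its change on TPM in 6 libraries was 0.30 on the log2 scale and not called, with a pseudocount of 0.1. Mmrn2, an endothelial EMILIN-family glycoprotein that binds VEGF, fell from 154 ± 5.95 to 129 ± 12.1 CPM, a ratio of 0.838 (log2 fold change -0.26, adjusted p = 0.0140). Leaving out corticosterone replicates 1 and 2, at 116 and 121 CPM, reduced the Mmrn2 change to -0.14 (adjusted p = 0.00501).

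Of the 4 secreted proteoglycans 2 had enough counts, and 1 rose and 1 fell, both at low levels. Bgn encodes biglycan, a small leucine-rich proteoglycan (chrX:73483602-73495933, plus strand), and stood at 0.601, 0.591, 0.667 and 0.614 CPM with corticosterone and 3.12, 2.98, 2.46 and 4.01 CPM in medium. These were 74 counts in the 4 treated libraries and 392 in medium. The groups did not overlap and the ratio was 0.197 (log2 fold change -2.34 ± 0.18 (SE), adjusted p = 8.28e-07). On the TPM scale, which is per transcript length, Bgn stood at 1.00 and 1.09 in corticosterone replicates 3 and 4 and at 1.76 to 3.56 in medium, a smaller gap (log2 change -1.21 with a pseudocount of 0.1). The sum of the fibroblast markers, mostly Pdgfra, was 5.74 to 6.72 CPM with corticosterone and 19.9 to 22.0 CPM in medium, lower in the same libraries as Bgn. Of the 7 markers 2 were tested, and these 2 were called lower, against 20.7% of all tested genes. Dcn (4 and 5 counts) and Lum (0 and 1) were near the floor in either group. The part of these markers in the fall of Bgn was not tested. Vcan (versican, a large chondroitin sulfate proteoglycan) held 66 counts with corticosterone and 24 in medium. Its levels were 0.633, 0.702, 0.364 and 0.542 CPM with corticosterone and 0.233, 0.258, 0.0502 and 0.174 CPM in medium. It rose 2.84-fold (log2 fold change 1.50 ± 0.40 (SE), adjusted p = 0.0104), but it passed the filter through the corticosterone libraries alone and lost its call without replicates 1 and 2 (log2 fold change 1.18, adjusted p = 0.0662). On TPM the Vcan groups overlapped, at 0.0401 and 0.0926 against 0.00831 to 0.115.

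The syndecans, heparan sulfate proteoglycans that span the plasma membrane, had a median absolute log2 change of 0.06 and were the 4 tested of 6 cell-surface proteoglycans. None rose, 1 fell and 3 were not called. Sdc1 averaged 71.5 ± 2.06 against 70.2 ± 2.52 CPM (SD, n = 4 each), Sdc2 54.2 ± 3.65 against 51.1 ± 1.54 CPM (SD, n = 4 each) and Sdc3 42.9 ± 1.44 against 42.9 ± 1.53 CPM (SD, n = 4 each). These 3 were not called, with adjusted p of 0.568, 0.166 and 0.997. Without corticosterone replicates 1 and 2, Sdc2 passed the threshold at a log2 fold change of 0.17 (adjusted p = 0.00333), and it also did without replicate 2 alone (adjusted p = 0.0463). Sdc4, a fibronectin co-receptor at focal adhesions, fell from 16.1 ± 0.894 to 14.1 ± 0.948 CPM (ratio 0.875, adjusted p = 0.0260). Its groups overlapped, and the call was lost without any of corticosterone replicates 1, 2 and 4 or medium replicates 1, 2 and 4 (adjusted p = 0.0543 to 0.0811). It kept its call in only 5 of 17 alternatives, with an adjusted p of up to 0.172.

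Of the 5 lysyl oxidases 3 were tested, and all 3 were called: Loxl3 rose, and Loxl2 and Loxl4 fell by less. Loxl3 stood at 5.29, 4.43, 4.52 and 4.84 CPM with corticosterone and 2.90, 2.65, 2.81 and 3.14 CPM in medium. All treated libraries were above medium, and the rise was 1.66-fold (log2 fold change 0.73 ± 0.10 (SE), adjusted p = 9.57e-05). Its exons share 535 bases with Htra2 on the opposite strand. On TPM in 6 libraries its log2 change was 1.10 and not called (adjusted p = 0.0592). Loxl2, known for crosslinking collagen IV of basement membranes, went from 10.8 ± 0.297 to 9.20 ± 0.705 CPM (ratio 0.851, adjusted p = 0.0144). The Loxl2 call was lost on TPM in 6 libraries (log2 change -0.13, adjusted p = 0.516), and it was also missed, at an adjusted p of 0.0667, when the model held a separate effect for corticosterone replicates 1 and 2. Loxl4 went from 59.4 ± 1.66 to 54.4 ± 2.50 CPM (ratio 0.916, adjusted p = 0.0171). The Loxl4 change was -0.07 on the log2 scale and not called without corticosterone replicates 1 and 2 (adjusted p = 0.179).

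The 14 other genes did not reach the filter, which asked for about 0.355 CPM in 4 libraries, and are given by their counts over 4 libraries with corticosterone and 4 in medium. Postn (periostin) held 0 and 2, Matn4 20 and 28, Mgp 13 and 36, Fbn2 42 and 29, Efemp1 2 and 2, and Efemp2 24 and 22. Mmrn1 held 2 and 0, Dcn 4 and 5, Lum 0 and 1, Gpc1 15 and 27, and Gpc4 1 and 1. Lox, the founding lysyl oxidase, held 3 and 0, and Loxl1 held 0 and 9. Vtn (vitronectin) had 0 counts in all 8 libraries, which allows up to 3 of 242387862 counts, or 0.0124 CPM, for counting error alone. No gene of this group had more than 26 counts in a library. Decorin, lumican and periostin, abundant products of fibroblasts, were thus near or at 0 in both groups.

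Summed over the 43 genes, the level was 5536 ± 79.0 CPM with corticosterone and 7883 ± 269 CPM in medium (SD, n = 4), a ratio of 0.702. Fn1, Sparc and Tnc together made up 84.3% of the sum in medium and 70.7% with corticosterone. The other 40 genes summed to 1620 ± 68 CPM with corticosterone and 1235 ± 59.4 CPM in medium, a ratio of 1.31. Fbln5 accounted for most of that difference, at 754 ± 29.3 against 429 ± 37.4 CPM. Without Fbln5 as well, the rest summed to 866 ± 41.1 against 807 ± 22.2 CPM, a ratio of 1.07. Fn1, Sparc and Tnc led by their CPM in medium, whereas with corticosterone Fbln5 stood above Tnc, and leaving out Fn1, Sparc and Fbln5 in their place gave 1264 ± 42.1 against 1797 ± 37.7 CPM, a ratio of 0.703. The direction of the remainder thus depended on which genes were left out. Among the 40 genes 14 were not tested, 7 were called higher and 11 lower, where 19.6% of all tested genes were higher and 20.7% lower.

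**Figure D4:**
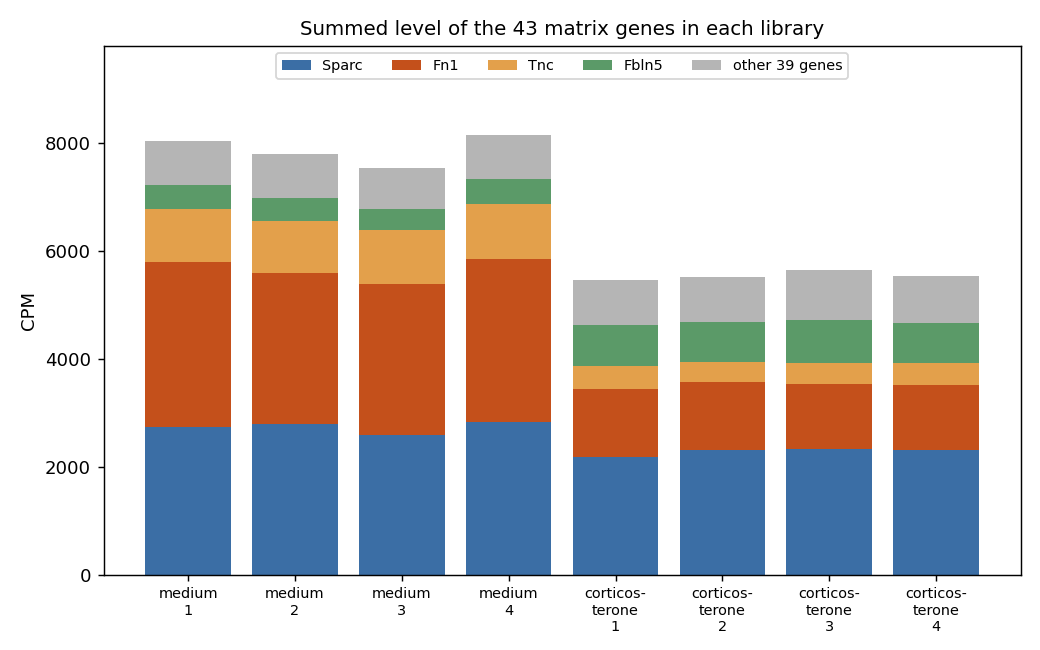
Summed level (CPM) of the 43 matrix genes in each library, stacked by gene. The Fn1 segment takes 2799 to 3060 CPM in the medium libraries and 1200.0 to 1274 CPM in the corticosterone libraries, and the Fbln5 segment is taller in the latter.

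Levels per transcript length order the genes differently, because long transcripts collect more reads. TPM was compared in the 6 libraries with the same kind of effective length. In medium Sparc led with 2194 ± 101 TPM, 60.9% of the members' TPM, followed by Fn1 with 535 ± 32.5, Fbln5 with 265 ± 26.9 and Tnc with 198 ± 7.12. These 4 neighbours differed by more than their spread. In corticosterone replicates 3 and 4, Sparc averaged 1827 TPM, Fbln5 461, Fn1 215, Ecm1 107 and Tnc 77.6, so that Fbln5 and Fn1 had exchanged places. Matn2 went from rank 16 of 43 to rank 7, Tgfbi from 21 to 15 and Thbs1 from 9 to 17. Lower in the medium order, Spp1 (22.3 ± 2.87 TPM) and Sdc2 (21.5 ± 0.538 TPM) did not differ beyond their spread.

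Other members have annotated exon choices, given here as values in corticosterone replicates 3 and 4 and the range over medium, with no test. A 66-nt exon of Papln (chr12:83775849-83775914) was held by 100% and 99.4% of its transcripts with corticosterone and 29.9% to 61.5% in medium. These shares rest on low counts, since all Papln transcripts together averaged 2.06 and 10.7 CPM. A 129-nt exon of Mmrn2 (chr14:34396165-34396293) was held by 83.9% and 84.6% against 75.2% to 81.7%. A 273-nt exon of Tnc (chr4:63984460-63984732) stood at 14.0% and 13.7% against 13.2% to 14.3%, and a 141-nt exon of Fbln2 (chr6:91259630-91259770) at 58.0% and 52.6% against 53.4% to 63.5%. For Papln and Mmrn2 the treated values lay above the medium range, whereas those of Tnc lay within it and 1 of the 2 Fbln2 values lay below it. These exons were picked, after their values were seen, from all such exons of the tested members outside Fn1. In none of the exons left out did the 2 treated values lie outside the medium range.

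Promoters were searched for short motifs in the 250 bases before the start, from RefSeq (GRCm38.p6), where 27 of the 43 genes had an entry, with 36 windows, some of which overlap. The glucocorticoid receptor hexamer AGAACA, on either strand, was in 13.9% of these windows and in 16.1% of all 32851 windows of that length. The AP-1 element TGANTCA was in 5.56% and 6.75%. The GC box GGGCGG was in 63.9% of the members' windows and 32.7% of all. The full palindrome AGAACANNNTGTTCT, which contains the hexamer on both strands, was in 0 of the 36 windows and in 0.00913% of all. The hexamer was in windows of Bgn, Emilin1, Fbln1, Sparc and Vtn, of which Bgn, Fbln1 and Sparc fell, Emilin1 was not called and Vtn had 0 counts. A link between the hexamer and the direction of change was not tested. Fn1, Matn2 and Thbs1 were among the genes without an entry, so their promoters were not searched. Bgn and Ecm1 are printed as genes that moved in opposite directions and hold the hexamer and the AP-1 element. Bgn is on the plus strand at chrX:73483351-73483600, with the reverse complement of AGAACA in capitals, 241 to 236 bases before the start. Ecm1 is on the minus strand at chr3:95739570-95739819, with the AP-1 element in capitals, 64 to 58 bases before the start.
Bgn promoter: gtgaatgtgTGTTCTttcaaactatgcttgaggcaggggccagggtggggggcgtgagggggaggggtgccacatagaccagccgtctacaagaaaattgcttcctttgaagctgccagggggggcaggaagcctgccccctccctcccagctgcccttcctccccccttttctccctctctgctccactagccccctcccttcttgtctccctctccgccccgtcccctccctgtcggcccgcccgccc
Ecm1 promoter: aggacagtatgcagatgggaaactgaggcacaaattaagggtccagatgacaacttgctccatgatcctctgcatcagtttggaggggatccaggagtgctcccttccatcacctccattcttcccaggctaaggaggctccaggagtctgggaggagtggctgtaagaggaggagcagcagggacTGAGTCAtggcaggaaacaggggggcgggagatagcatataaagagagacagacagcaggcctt

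Genes next to the members in the same pathways are given as counts from lists written with earlier results in view. Beside each count stand the shares over all tested genes, 19.6% called higher and 20.7% lower. Of 21 further matricellular and adhesive genes, 11 were tested, 6 rose and 4 fell. Ccn1 and Ccn2, integrin-binding matricellular proteins, fell from 136 to 37.8 CPM and from 61.2 to 17.0 CPM (adjusted p = 5.12e-05 and 1.10e-06), as Fn1 and Thbs1 did. Npnt (nephronectin) and Tinagl1 rose 2.24-fold and 1.82-fold. Of 15 microfibril and latent TGF-beta binding genes, 10 were tested, 4 rose and 4 fell, among them Ltbp1 at a ratio of 0.526 and Adamtsl4 at 2.05. Of 22 other proteoglycan genes, 12 were tested, 5 rose and 6 fell, with Esm1 (endocan) at a ratio of 0.164 and Gpc6 at 0.335, and Srgn (serglycin) at 1.79. Of 34 glycosaminoglycan synthesis genes, 29 were tested, 8 rose and 6 fell. Their median absolute log2 change was 0.15, against 0.14 over all tested genes.

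Of 17 other crosslinking and collagen-modifying enzymes, all 17 were tested, 9 rose and 4 fell, where 19.6% of all tested genes were called higher and 20.7% lower. P3h2 and P4ha2, prolyl hydroxylases of collagen, rose 2.35-fold and 1.77-fold, and Pxdn, the peroxidase that crosslinks collagen IV, fell to a ratio of 0.747. Of 14 receptors for fibronectin and elastic-fibre proteins, 12 were tested, 6 rose and 4 fell. Itgb3, the integrin β3 subunit, rose from 292 to 989.8 CPM (adjusted p = 6.41e-13). Itga9, the subunit that pairs with β1 to bind the EDA loop and tenascin-C, rose from 2.55 to 11.9 CPM (adjusted p = 2.77e-09), whereas Itga4, the other subunit known for the EDA loop, fell from 114 to 85.1 CPM (adjusted p = 1.02e-07). Receptor and ligand transcripts thus moved in both directions, with Itga9 higher and Fn1 and Tnc lower.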

How the data were processed

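RNA from 8 samples of bEnd3 cells was measured by poly(A) RNA-seq, 4 with corticosterone and 4 in medium, grouped by their titles. The submitters' processing notes name bcl2fastq, kallisto 0.46.1, mm10 and GRCm38. The sources used here do not give the index, strand handling or gene summing. As deposited, the gene table holds the authors' estimated counts without scaling. Per the file headers, the authors also deposited kallisto tables per library with estimated counts, TPM (abundance per length on a fixed total) and effective lengths for 119414 transcripts. Transcripts were joined to genes with GENCODE M21 on GRCm38 (97.3% matched), and summed transcripts equalled the gene table within 0.5 counts for all 43 members. Positions count from 1.

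After rounding, the estimated counts went into edgeR 4.0.16 (R 4.3.3): filterByExpr with a minimum count of 10, TMM scaling, and the robust quasi-likelihood F test of group alone, adjusted over all genes by Benjamini-Hochberg. CPM are counts scaled to a common, TMM-adjusted library size. Fn1 transcripts were fitted the same way over all transcripts. Exon shares divided estimated counts by annotated transcript length, among coding transcripts that span the exon, and were compared by two-sided exact permutation over libraries (numpy 2.4.6). TPM was used in 6 libraries, since effective lengths in corticosterone replicates 1 and 2 put theirs on another scale. Changes on the log2(TPM + pseudocount) scale were fitted with limma 3.58.1, and the pseudocount pulls those of low genes toward 0. They were not always smaller than by counts, since that of Loxl3 was 1.10 against 0.73. The method was tested on simulated data.

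The members, gene lists and tests were chosen with earlier results of these data known. Values in every library are given for called members with a mean of 1 CPM or more in a group and an absolute log2 fold change of 0.5 or more. Exon choices outside Fn1, and the promoters printed, were chosen after their values were seen. From each list of neighbouring genes, up to 2 called genes with the smallest p in each direction were named. Other scalings, no filter, DESeq2 1.42.0, left-out libraries, a replicate block, a term for corticosterone replicates 1 and 2, and TPM were tried as alternatives. Genes with exons that overlap a gene on the opposite strand, among them Fn1, Tnc, Thbs1, Matn2, Eln, Fbn1 and Loxl3, may hold reads of that gene, since the strand setting is not given. The floor for Vtn reflects counting error only, and the labels name no molecular identifiers that would mark PCR copies.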

Additional observations from a re-analysis of the deposited data

Results flagged for a closer look

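The values of each tested member and each Fn1 exon share were examined within each group of 4 libraries, 72 sets in all. In 5 of them the gap between the highest or lowest library and the next, as a part of the range, exceeded the critical value of Dixon's test, and chance flags about 1 group in 20. Papln with corticosterone had its highest library in replicate 4, at 2.64 CPM. Fbln5 in medium had its lowest library in replicate 3, at 373.1 CPM. Loxl4 in medium had its highest library in replicate 3, at 61.9 CPM. These 3 genes kept their groups apart with these libraries included. The share of Fn1 transcripts that held exon 2, and likewise exon 3, had its lowest corticosterone library in replicate 2, at 89.8%. Both exons are held by the same transcripts, so that they are 1 observation.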

How the results depend on the processing

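Of the 21 called members, 14 kept direction and call in all 17 alternatives run, among them Fn1, Tnc, Thbs1, Papln, Sparcl1, Sparc, Matn2, Tgfbi, Ecm1, the 3 called fibulins and Bgn. Over the alternatives, 5 to 8 members were called higher and 10 to 15 lower, and leaving out 1 library gave 7 to 8 and 13 to 15. Sdc4, Vcan, Loxl2, Loxl3, Loxl4, Mmrn2 and Emilin2 each lost the call in at least 1 alternative; the cause was not tested. With limma on TPM in 6 libraries, 1248 genes were higher and 1585 lower (pseudocount 0.1), or 1285 and 1578 (pseudocount 1), against 2540 and 2452 by edgeR on counts of the same 6 libraries; the cause was not tested. Emilin1 then gave 0.25 and 0.068 and Emilin2 0.30 and 0.23 on the log2 scale, above 0 and not called. In the same fits the change of Bgn was -1.21 and -0.80, against -2.34 by counts in all 8 libraries, and that of Papln was -2.17 and -1.42. Library size alone gave 2203 genes higher and 3387 lower, against 2596 and 2741, with Sdc1 at -0.0043 and Sdc3 at -0.0301. Without 1 library, all genes ranged from 2359 to 2551 higher and 2414 to 2609 lower, and Sdc3 from -0.0239 to 0.0232.

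The differences in EDA, EDB and V-form shares of Fn1 changed direction, while exons 2 and 3 stayed lower with corticosterone (-2.59 percentage points over 8 libraries and -0.10 over 6). The EDA difference, -0.60 percentage points over 8 libraries, was 7.04 in 6 libraries by counts and by TPM, and -3.30 to 2.12 without 1 library. The EDB difference, -0.58 over 8 libraries, was 0.750 by counts and 0.749 by TPM in 6 libraries, and -1.30 to 0.246 without 1 library. The V forms, added after the data were seen, gave -4.23, 3.48 and 0.755 over 8 libraries for 120, 95 and no extra codons. In 6 libraries they gave 3.56, -3.49 and -0.0712 by counts and 3.57, -3.49 and -0.0715 by TPM. Without 1 library the longest form ranged from -7.29 to 1.2 and the 95-codon form from -1.33 to 6.24, the change of sign coming without corticosterone replicate 1.

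Same-numbered deviations correlated at -0.04, 0.03, -0.04 and -0.05, so they showed no pairing by replicate number. Whether same-numbered libraries shared a culture or preparation cannot be told from these values. The labels do not say, and corticosterone replicates 1 and 2 stood apart from the other libraries. With a replicate block, 7 members were higher and 12 lower, 0 Fn1 transcripts were lower in edgeR against 5 without it, and 1 Fn1 transcript was higher in the 6 libraries. At an unadjusted p under 0.05 in edgeR, 7 of 11 were lower with or without the block. The share of all transcripts at that threshold is not given here. In exact permutation within replicate numbers the smallest possible p is 0.125, and the EDA exon gave 1. At this depth 14 members could not be tested, and Vcan rested on 66 and 24 counts.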
